A study of Mus musculus with 40 samples.

Results

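The stearoyl-CoA desaturases Scd1, Scd2 and Scd4 were followed through mouse hypothalamus of 40 strains, as the 3 rows with these symbols among the 23955 genes of the deposited count table. A stearoyl-CoA desaturase places a cis double bond in stearoyl- and palmitoyl-CoA in the endoplasmic reticulum and so makes oleate and palmitoleate, the monounsaturated fatty acids of phospholipids, triglycerides and cholesteryl esters. The electrons for the reaction come from NADH through cytochrome b5 reductase and cytochrome b5. Scd1 is the lipogenic isoform of liver and fat, Scd2 is the main isoform of mouse brain and is used in myelin lipid synthesis, and Scd4 was described in mouse heart.

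The tissue was taken in the basal state, without treatment. The strains were 36 BXD lines (recombinant inbred lines bred from C57BL/6J and DBA/2J), the reciprocal hybrids B6D2F1 and D2B6F1, and C57BL/6J and DBA/2J themselves. Each strain gave 1 library, and each BXD library was made from the pooled RNA of 3 to 6 hypothalami, so animals of a strain cannot be told apart and p-values measure the spread between strains. Hypothalamic Fgf15/19, a hormone of the fibroblast growth factor family, is named in the title of the series in connection with glucagon secretion.

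The 3 genes lie side by side on chromosome 19 with the fourth member of the family, Scd3, an isoform of mouse skin and Harderian gland. In the GENCODE annotation of GRCm38 their order is Scd3, Scd2 and Scd4 on the plus strand and then Scd1 on the minus strand. The coding sequence has 1068 bases in Scd1, 1077 in Scd2 and 1062 in Scd4, each gene with 6 exons. Aligned in pairs, Scd1 and Scd2 were identical at 90.4% of coding bases, Scd1 and Scd4 at 85.2%, and Scd2 and Scd4 at 83.8%. The stretch of 90 coding bases in which the 3 genes are most alike is shown because a short read from it could hardly tell them apart. It holds one of the histidine boxes that bind the iron of the active site. It covers coding bases 424 to 513 of Scd1, 433 to 522 of Scd2 and 418 to 507 of Scd4, counted from the first base of the start codon, and 89 of its bases are the same in all 3. Capitals mark bases that differ from Scd1.
Scd1: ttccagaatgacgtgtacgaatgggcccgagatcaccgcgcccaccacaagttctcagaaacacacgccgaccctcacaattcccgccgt
Scd2: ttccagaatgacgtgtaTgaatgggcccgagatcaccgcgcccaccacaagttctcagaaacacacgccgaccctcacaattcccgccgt
Scd4: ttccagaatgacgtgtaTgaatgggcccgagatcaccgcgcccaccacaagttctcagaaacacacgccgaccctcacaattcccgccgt

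The stretch of 90 bases in which they are least alike is shown because reads from it tell the 3 genes apart. It covers coding bases 290 to 379 of Scd1, 299 to 388 of Scd2 and 284 to 373 of Scd4, and 61 bases are the same in all 3. Scd2 differs from Scd1 at 12 of these bases and Scd4 at 23, again in capitals.
Scd1: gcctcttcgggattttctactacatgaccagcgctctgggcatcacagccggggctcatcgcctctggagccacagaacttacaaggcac
Scd2: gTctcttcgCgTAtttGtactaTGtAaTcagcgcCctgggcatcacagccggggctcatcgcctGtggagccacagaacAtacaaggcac
Scd4: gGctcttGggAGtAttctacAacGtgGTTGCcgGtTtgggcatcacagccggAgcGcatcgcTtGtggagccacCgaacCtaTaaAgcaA

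Over whole transcripts little sequence is shared at the length of a read. Of all windows of 100 bases, the read length of the libraries, 2.64% of those in Scd1, 0.896% of those in Scd2 and 0.53% of those in Scd4 occur without a mismatch in the transcript of another family member. With up to 2 mismatches the shares are 5.56% for Scd1, 5% for Scd2 and 2.28% for Scd4. In addition, 26 windows of Scd1 occur in the annotated gene AC123853.3. The libraries were stranded and single-end, per the labels. Counts of reads from shared stretches are uncertain, because the treatment of reads with several matches is not given in the sources used here.

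The 3 genes stood at very different levels. Scd2 was the most abundant, at 2670 ± 146 CPM (reads per library size after TMM scaling; SD, n = 36 lines), with 2284 CPM in the lowest line, BXD98, a median of 2678 and 2941 CPM in the highest, BXD32. Scd1 averaged 461 ± 50.5 CPM (SD, n = 36 lines), with 370 CPM in the lowest line, BXD85, a median of 450 and 568 CPM in the highest, BXD49. Scd4 ran between 0.0887 CPM in BXD50 and 9.74 CPM in BXD45, with a median of 0.341 CPM. Scd3, for comparison, averaged 4.99 ± 0.68 CPM (SD, n = 36 lines).

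Per kilobase of annotated exons the mean level over the lines was 489 CPM for Scd2, 94.2 CPM for Scd1, 1.41 CPM for Scd3 and 0.764 CPM for Scd4. Scd2 made up 81.6% to 86.1% of the family's summed level per kilobase, Scd1 13.3% to 18.1% and Scd4 0.00407% to 0.444%. The ratio of Scd2 to Scd1 per kilobase was lowest in BXD64, at 4.50, and highest in BXD85, at 6.495, with a median of 5.21. Scd2 was thus above Scd1 in each of the 36 lines.

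**Figure D1:**
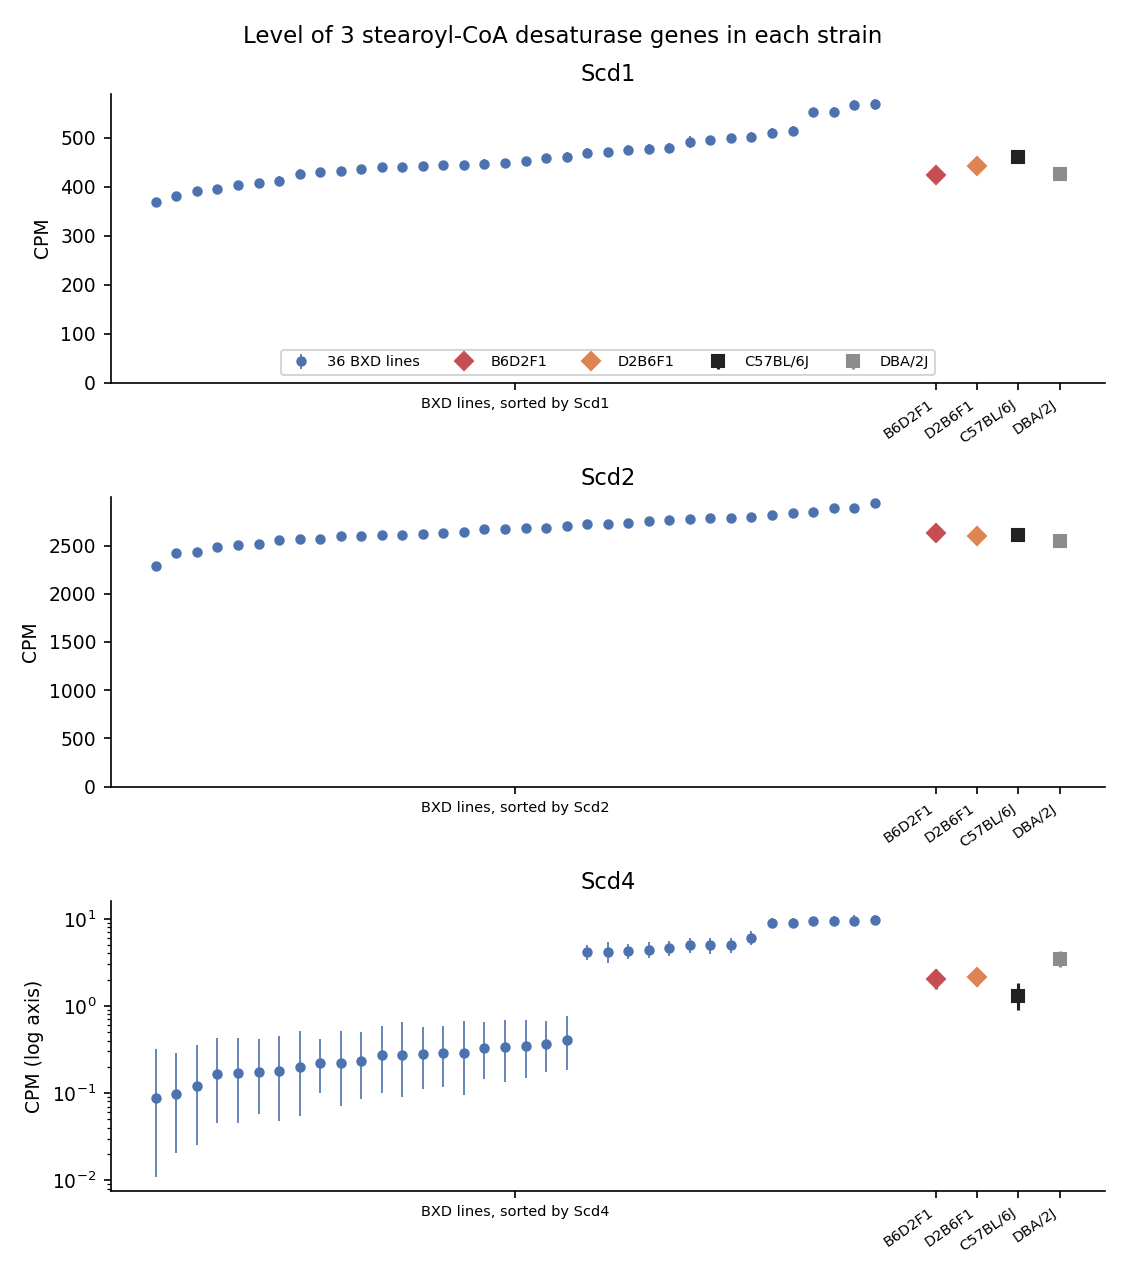
Level in CPM of Scd1, Scd2 and Scd4 (log axis for Scd4) in the 36 BXD lines, sorted within each panel, and in B6D2F1, D2B6F1, C57BL/6J and DBA/2J, 1 library per strain, with exact 95% Poisson intervals that cover counting error only. Scd1 and Scd2 form unbroken ranges, whereas Scd4 leaves 0.402 to 4.13 CPM empty of BXD lines.

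Scd1 and Scd2 each formed an unbroken range over the panel, wider for Scd1 than for Scd2. The highest line stood 1.54 times above the lowest for Scd1 and 1.29 times for Scd2. The SD of log2 CPM over the lines was 0.16 for Scd1 and 0.080 for Scd2, against 0.014 and 0.0059 that read counting alone would give. Among the 500 genes of closest mean level, 429 had a smaller SD than Scd1, and 95 had a smaller SD than Scd2. At the low end of Scd1 were BXD85 (370 CPM), BXD43 (381 CPM), BXD100 (391 CPM) and BXD67 (395 CPM). At its high end were BXD66 (552 CPM), BXD56 (553 CPM), BXD64 (567 CPM) and BXD49 (568 CPM). The low end of Scd2 was held by BXD98 (2284 CPM), BXD75 (2422 CPM), BXD51 (2429 CPM) and BXD48 (2481 CPM), and its high end by BXD64 (2851 CPM), BXD66 (2887 CPM), BXD49 (2893 CPM) and BXD32 (2941 CPM). BXD49, BXD64 and BXD66 were thus among the 4 highest lines for both genes.

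Across the 36 lines Scd1 and Scd2 went together, with Pearson's r of 0.64 and Spearman's rho of 0.66 on log2 CPM. In a two-sided test with 100000 permutations p was 5e-05 for each, or 0.00025 after Benjamini-Hochberg adjustment over the 5 correlations between the genes. Without BXD49 and BXD64, the 2 lines farthest from the median of Scd1, r was 0.59. BXD32 and BXD65 had the highest summed levels of the 8 choroid plexus markers, 967 CPM and 192 CPM against a median of 112 CPM over the lines. Much of this was Ttr alone, the thyroid hormone carrier, at 799 CPM in BXD32 and 79.0 CPM in BXD65. Without Ttr the other 7 markers summed to 168 CPM in BXD32, still the highest line, and to 113 CPM in BXD65, against a median of 109 CPM. Without these 2 lines r was 0.63.

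**Figure D2:**
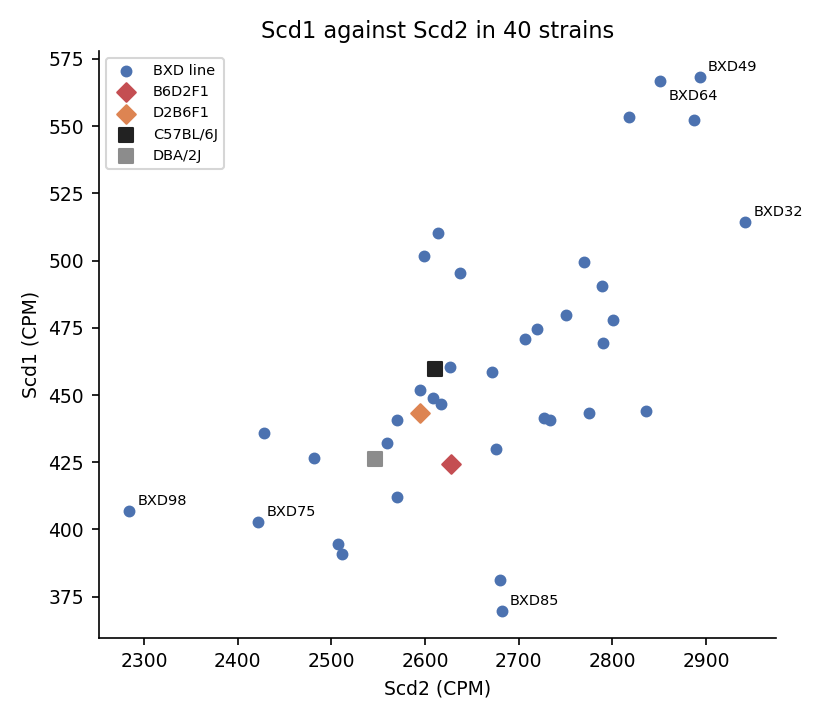
Scd1 against Scd2, both in CPM, with 1 point per strain. The 36 BXD lines spread along a rising band with r = 0.64, and the 4 parental and F1 libraries lie inside it. Both axes start above 0.

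Scd4 parted the BXD lines into separate sets. In 21 lines it was close to the limit of detection, with 2 to 10 reads per library, and in the other 15 lines it had 50 to 261 reads. Among the 21, values ran from 0.0887 CPM in BXD50 to 0.402 CPM in BXD64, with too few reads to rank these lines. Between BXD64 and the next line up, BXD67 at 4.13 CPM, no line was found, a step of 3.12 log2 units. The level in BXD67 was 10.3 times that in BXD64. The exact 95% Poisson intervals of the 21 lines ended at or below 0.764 CPM and those of the 15 began at or above 3.08 CPM, so counting error did not bridge the step. For all genes the limit was set lower than this step, at 1 log2 unit with no fewer than 6 lines on each side. Steps of that size or more were found in 69 of 14487 genes, or 0.476%. Scd1, Scd2 and Scd3 had none, with widest steps of 0.050, 0.027 and 0.061 log2 units. The SD of log2 CPM of Scd4, 2.21, ranked 15 of 14487 genes.

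The 15 higher lines could be divided once more, at the widest step among them. Of these, 9 lines lay at 4.13 to 6.00 CPM, namely BXD67, BXD55, BXD32, BXD83, BXD98, BXD56, BXD48, BXD75 and BXD65. The other 6 lay at 8.91 to 9.74 CPM. These were BXD97 (8.91 CPM, 232 reads), BXD87 (9.01 CPM, 235 reads), BXD85 (9.39 CPM, 261 reads), BXD84 (9.53 CPM, 236 reads), BXD63 (9.54 CPM, 214 reads) and BXD45 (9.74 CPM, 211 reads). The step between these sets, from BXD65 to BXD97, was 0.56 log2 units, and the widest step inside either of them was 0.27. This second step was noted after the values were seen. The Poisson interval of the uppermost of the 9 lines ended at 7.21 CPM, and the lowest interval of the 6 began at 7.80 CPM. Since the sets were divided at this step, neither the distance between their intervals nor the narrower steps inside them is separate support for 2 levels. The 6 lines were picked by their Scd4 level, so Scd4 set them apart from the other 30 by choice. No other gene among the 14487 did so.

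How far reads of the paralogues were counted to Scd4 was not tested. BXD50, with 2 Scd4 reads, had 60306 reads of Scd2 and 9691 of Scd1. Over the 21 low lines, Scd4 reads came to at most 0.0141 per 100 reads of Scd2. The normalized table of the authors held the same Scd4 read number as the raw one in 37 of 40 libraries.

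For Scd4 the start region is shown because its level differed so widely between lines. It covers 250 bases before to 50 bases after the annotated start (RefSeq, GRCm38.p6, chr19:44333076-44333375, plus strand). The base letters are those of the reference assembly, and the sequence carried by each BXD line was not examined.
Scd4: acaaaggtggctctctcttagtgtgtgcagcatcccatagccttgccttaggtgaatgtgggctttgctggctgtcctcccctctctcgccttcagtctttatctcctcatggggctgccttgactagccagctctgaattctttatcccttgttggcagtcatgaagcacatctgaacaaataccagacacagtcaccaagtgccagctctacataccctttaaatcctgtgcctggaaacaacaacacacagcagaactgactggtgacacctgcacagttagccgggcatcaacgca
On either strand this window held no TATA box (TATAAA, in 13.6% of 32851 promoters of the same length), no CCAAT (37.4%), no E-box (CACGTG, 7.15%), no GC box (GGGCGG, 35.7%) and no sterol regulatory element (TCACNCCAC, 1.24%).

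In the hybrids and parents, each of 1 library, Scd4 fell inside the interval that the BXD lines left empty. It stood at 2.06 CPM in B6D2F1 (55 reads) and 2.14 CPM in D2B6F1 (70 reads), against 1.31 CPM in C57BL/6J (33 reads) and 3.49 CPM in DBA/2J (92 reads). Relative to these parental values 15 BXD lines were above both, 21 below both and none between. C57BL/6J was lower than DBA/2J, by a log2 difference (C57BL/6J minus DBA/2J) of -1.36 with a counting SE of 0.29. This difference ranked 110 of 14630 genes by size, of which 231, or 1.58%, reached 1 log2 unit in either direction. On the log2 scale B6D2F1 lay at 0.54 and D2B6F1 at 0.50 of the way from DBA/2J to C57BL/6J. The reciprocal hybrids differed by -0.05 log2 units (B6D2F1 minus D2B6F1, counting SE 0.26), where 31 of 14628 genes, or 0.212%, reached 1 log2 unit.

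Scd1 and Scd2 differed little between these 4 libraries. Scd1 stood at 424 CPM in B6D2F1 and 443 CPM in D2B6F1, while C57BL/6J had 460 CPM and DBA/2J 426 CPM. Scd2 stood at 2627 CPM in B6D2F1 and 2595 CPM in D2B6F1, while C57BL/6J had 2611 CPM and DBA/2J 2547 CPM. The parental log2 difference (C57BL/6J minus DBA/2J) was 0.11 for Scd1 and 0.04 for Scd2, with counting SEs of 0.019 and 0.0079, and has no replicate check. Of the BXD lines, 16 were above both parents, 7 below both and 13 between them for Scd1. For Scd2 these numbers were 24, 6 and 6.

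The sides on which the lines fell for Scd4 recurred in other genes of chromosome 19. For each gene the lines were parted at its own widest step, and the lines on the matching side were counted, with the median gene matching in 20 of 36 lines. The better of the same and the opposite side was taken, so 18 is the lowest possible match. The highest possible match depends on how many lines lie on each side of the gene's own step. A match in at least 28 lines was found for 14 of 14486 genes, or 0.0966%, and 10 of these were among the 457 measured genes of chromosome 19. Of the genes with a step of at least 0.3 log2 units Pyroxd2, a pyridine nucleotide-disulphide oxidoreductase, matched best, in 35 of 36 lines and on the same side as Scd4. It was at most 4.84 CPM in 20 lines and at least 7.67 CPM in 16, a step of 0.66 log2 units. The odd line was BXD96, with 9.48 CPM of Pyroxd2 beside 0.233 CPM of Scd4. Pkd2l1, an ion channel of the polycystin family, is the nearest measured gene on the Scd3 side of the cluster. It matched in 28 lines on the opposite side, with a step of 0.65 log2 units. This step left 7 lines below it, all of them high in Scd4, and 28 was the most that such a split allowed.

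Further genes had narrower steps and are named here after their values were seen. Hps1, a subunit of a complex for lysosome-related organelles, matched in 35 lines on the opposite side with a step of 0.25 log2 units, at most 16.9 CPM in 16 lines and at least 20.1 CPM in 20. Its odd line was again BXD96. Hif1an, the asparagine hydroxylase of hypoxia-inducible factor, is the third measured gene on the Scd1 side. It matched in 34 lines on the opposite side with a step of 0.07 log2 units, the odd lines being BXD43 and BXD51. Chuk, an IkB kinase and another near neighbour, matched in 29 lines on the opposite side. The remaining near neighbours Erlin1, Cwf19l1, Bloc1s2, Sec31b, Ndufb8, Sema4g and Mrpl43 matched in 18 to 21 lines. Within the cluster itself Scd1 matched in 22 lines and Scd2 in 23, both on the opposite side, and Scd3 in 26 on the same side.

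Between the parents these genes differed as well. C57BL/6J had 4.37 CPM of Pyroxd2 and DBA/2J 7.86 CPM, while C57BL/6J had 23.1 CPM of Hps1 and DBA/2J 16.7 CPM. For both genes C57BL/6J, the parent with less Scd4, was therefore on the side of the lines low in Scd4, and DBA/2J on the other. C57BL/6J had 4.93 CPM of Pkd2l1 and DBA/2J 1.14 CPM, a log2 difference of 2.04, with both above the step of the lines. The hybrids B6D2F1 and D2B6F1 had 5.32 and 6.92 CPM of Pyroxd2 and 18.6 and 19.6 CPM of Hps1, inside the steps of both genes.

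**Figure D3:**
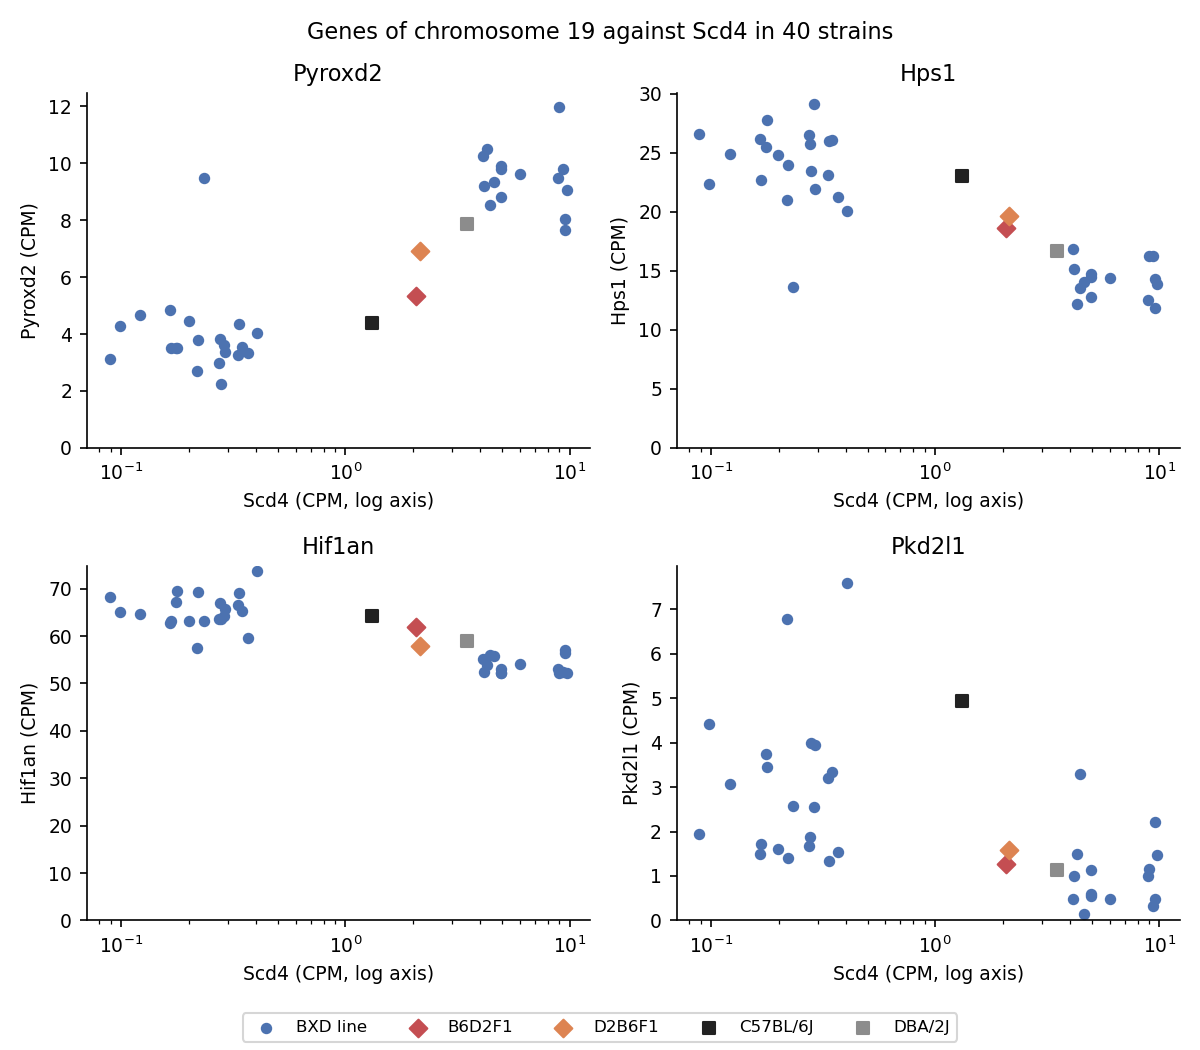
Pyroxd2, Hps1, Hif1an and Pkd2l1 (CPM) against Scd4 (CPM, log axis), with 1 point per strain. Pyroxd2 is high and Hps1 low in the 15 lines with at least 4.13 CPM of Scd4 and in BXD96, and the parental and F1 libraries lie between the sets of lines along the Scd4 axis.

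Within each side of the Scd4 step, its level showed no relation to the other 2 genes that passed a test. Pearson's r with Scd1 was -0.10 over the 21 low lines and -0.08 over the 15 high lines. With Scd2 it was 0.12 over the 21 low lines and 0.14 over the 15 high lines. The permutation p adjusted over the 5 correlations was 0.785 for each of the 4, and the low lines, with 2 to 10 reads, give little room to see a relation. Without BXD49 and BXD64, the 2 of the low lines farthest from the median of Scd1, r of Scd1 with Scd4 was -0.47 (permutation p = 0.0414, adjusted p = 0.104 over the 5 correlations).

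None of the 3 genes passed the test between groups of strains. Between the BXD lines and the 4 hybrid and parental libraries edgeR's quasi-likelihood test called 0 of 16198 genes at an adjusted p under 0.05 (0%), with 163 at an unadjusted p under 0.05 and 0 calls by DESeq2. The log2 difference (BXD lines minus the 4 libraries) was 0.08 ± 0.078 for Scd1, 0.05 ± 0.044 for Scd2 and 0.35 ± 1.02 for Scd4 (± SE, adjusted p = 1.00 for each with edgeR). Intervals of 2 SE reached -0.08 to 0.23 for Scd1 and -0.04 to 0.13 for Scd2, but -1.69 to 2.39 for Scd4. Between the 2 F1 hybrids and the 38 inbred libraries edgeR again called 0 of 16198 genes (0%), with 95 at an unadjusted p under 0.05 and 0 by DESeq2. There the log2 difference (F1 minus inbred) was -0.09 ± 0.11 for Scd1, -0.03 ± 0.061 for Scd2 and -0.43 ± 1.42 for Scd4 (± SE).

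The slope on Fgf15, the gene in the series title, was tested over the 36 lines. edgeR called 1 of 16197 genes (0.00617%), and it was none of the 3. For each log2 unit of Fgf15, Scd1 changed by 0.06 ± 0.029 log2 units (SE), Scd2 by 0.0036 ± 0.017 and Scd4 by -0.24 ± 0.38, with edgeR adjusted p-values of 0.975, 0.998 and 0.988. The unadjusted edgeR p of Scd1 was 0.0532.

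Which genes followed Scd2 from line to line was tested by the slope on its log2 level, and Scd1 was among the few that passed. edgeR called 12 of 16197 genes (0.0741%), 8 with a positive and 4 with a negative slope, while 3061 had an unadjusted p under 0.05 and DESeq2 called 231. Scd1 rose by 1.29 ± 0.25 log2 units (SE) per log2 unit of Scd2, with an edgeR adjusted p of 0.0375. This slope and the correlation above rest on the same values. With a positive slope came also Lamp2, a protein of the lysosomal membrane, with 0.84 ± 0.17 (edgeR adjusted p = 0.0375) and levels of 82.5 to 113 CPM, and Gjc3, a connexin of myelinating glia, with 1.47 ± 0.30 (edgeR adjusted p = 0.0375) and levels of 62.4 to 121 CPM. Kcnj16, a subunit of inwardly rectifying potassium channels, had a slope of 1.24 ± 0.27, Pcdhb3, a clustered protocadherin, 1.63 ± 0.34, and Hiatl1 1.14 ± 0.24. With a negative slope came Foxo6, a forkhead transcription factor of neurons, with -2.63 ± 0.44 (edgeR adjusted p = 0.0102) and levels of 5.34 to 13.04 CPM. Cyp46a1, the enzyme that hydroxylates cholesterol in neurons, had a slope of -1.21 ± 0.25, and Pcdh8, a protocadherin, -1.79 ± 0.36. Below a mean of 1 CPM, Tph2, of serotonin synthesis, was called with a positive slope of 10.6 ± 2.19. Its mean was 0.871 CPM, with a median of 0.510 and 12.7 CPM in the highest line. Wnt10a, a Wnt ligand, was called with a slope of -3.99 ± 0.85 at a mean of 0.714 CPM. Ttr, the thyroid hormone carrier made by choroid plexus, had a slope of 24.4 ± 4.68 that goes with a single library: it stood at 799 CPM in BXD32, the line with the most Scd2, at 79.0 CPM in the next line, BXD65, and at a median of 1.21 CPM.

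These calls depended on single lines. Leaving out BXD32 or BXD98, the lines with the most and the least Scd2, left 0 calls each, and 0 calls were left without BXD98 and BXD75, the 2 lines farthest from the median (2637 genes at an unadjusted p under 0.05), and without BXD32 and BXD65 (1621 genes). The slope of Scd1 stayed between 1.19 and 1.43 with each line left out in turn, but its edgeR adjusted p passed 0.05 without any of 11 lines, BXD100, BXD32, BXD49, BXD55, BXD56, BXD63, BXD67, BXD75, BXD84, BXD89 or BXD98, and reached at most 0.141. BXD32 also had the highest summed levels of the 20 oligodendrocyte markers, 9534 CPM against a median of 6272 CPM, and of the 10 neuron markers, 7053 CPM against a median of 5540 CPM. The endothelial sum of BXD32 was the highest too, 377 CPM against a median of 322 CPM. Its microglia sum, 252 CPM, and its tanycyte and ependyma sum, 106 CPM, were the lowest, against medians of 353 and 124 CPM. In this bulk tissue more cells of a type and more RNA per cell cannot be told apart. The part of the neuron, endothelial, microglia, and tanycyte and ependyma markers was not tested. With the oligodendrocyte markers as a covariate the slope of Scd1 on Scd2 was 1.29 (edgeR adjusted p = 0.0203).

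With Scd1 as the measure, edgeR called 0 of 16197 genes (0%), with 1351 at an unadjusted p under 0.05 and 4 calls by DESeq2. Scd2 changed by 0.33 ± 0.078 log2 units (SE) per log2 unit of Scd1, with an unadjusted edgeR p of 1.28e-04, an adjusted p of 0.305 with edgeR and of 0.0156 with DESeq2. The slope of Scd4 on Scd1 was -0.60 ± 2.16 and on Scd2 -3.42 ± 4.30. The 5 genes most like Scd1 by Pearson's r over the 36 lines were Scd2 (0.64), Fgfbp3 (0.64), Rspo3 (0.63), Ppp1r3c (0.60) and Lamp2 (0.60), of which Fgfbp3 and Ppp1r3c are also on chromosome 19. The 5 most like Scd2 were Lamp2 (0.67), Erich1 (0.67), Scd1 (0.64), A730098P11Rik (0.64) and Pcdhb3 (0.63). These 36 values share library and depth with the gene they are compared with and are given as a description.

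The enzymes around the desaturases were read from the same fits. Of the 122 tested entries in 10 lists of lipid genes, none passed the edgeR test in any of the 5 fits. Over all genes these fits called between 0% and 0.0741%, so a count of 0 among 122 says little about lipid genes. The elongases and their partner enzymes, which lengthen the acyl-CoA chains, had a positive slope for 11 of 12 genes on Scd1, with a median of 0.21, and for 11 of 12 on Scd2, with a median of 0.45. Some marker lists were also mostly positive in the same fits. On Scd1 and Scd2 this held for 16 and 17 of 20 oligodendrocyte, 7 and 7 of 8 choroid plexus and 8 and 7 of 8 meningeal markers. Other lists were not, with 0 and 0 of 8 striatal, 4 and 4 of 16 hypothalamic, 3 and 4 of 10 microglia and 5 and 5 of 10 neuron markers. The part of any of these markers in the elongase slopes was not tested. Over all genes tested 51.7% of slopes on Scd1 and 52.9% of those on Scd2 were positive, with medians of 0.01 and 0.04. Elovl6, which lengthens palmitate to stearate and so makes the substrate of the desaturases, had a slope of 0.63 ± 0.22 on Scd2 (edgeR adjusted p = 0.142) at a mean of 114 CPM. Hacd2, a dehydratase of the elongation cycle, had 0.73 ± 0.25 on Scd2 (edgeR adjusted p = 0.141), and Tecr, its last reductase, had -0.30 ± 0.34.

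Of the 11 genes of fatty acid synthesis, 5 had a positive slope on Scd1 and 6 on Scd2, with medians of 0.00 and 0.02. Fasn, the fatty acid synthase, averaged 481 CPM and had slopes of -0.00080 ± 0.14 on Scd1 and -0.09 ± 0.27 on Scd2. Of the 6 other desaturases, 3 had a positive slope on each, and Fads1, of polyunsaturated fatty acid synthesis, had 0.39 ± 0.14 on Scd1 (edgeR adjusted p = 0.474). Of the 6 genes of desaturase electron transport, 4 had a positive slope on Scd1 and 3 on Scd2, and Cyb5b, a cytochrome b5, had 0.47 ± 0.19 on Scd2 (edgeR adjusted p = 0.193).

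For the regulators, 13 of 21 slopes on Scd1 and 11 of 21 on Scd2 were positive. Srebf2, the sterol-regulated transcription factor, had -0.23 ± 0.15 on Scd1 and -0.47 ± 0.29 on Scd2, and Nr1h2, a liver X receptor that binds oxysterols, -0.48 ± 0.19 and -0.86 ± 0.36. Insig1 went the other way, with 0.20 ± 0.14 on Scd1 and 0.68 ± 0.26 on Scd2 (edgeR adjusted p = 0.168 on Scd2). In cholesterol synthesis 15 of 22 slopes on Scd1 and 14 of 22 on Scd2 were positive. Of the remaining lipid lists, slopes on Scd2 were positive for 6 of 9 acyl-CoA synthetases, 6 of 12 genes of glycerolipid synthesis, 4 of 9 liver X receptor targets and 9 of 14 genes of fatty acid oxidation.

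Among the cell type markers, the oligodendrocyte list had 16 of 20 positive slopes on Scd1 (median 0.25) and 17 of 20 on Scd2 (median 0.59), with no call. Aspa, which splits N-acetylaspartate for myelin lipids, had 1.60 ± 0.39 on Scd2 (edgeR adjusted p = 0.0676). Slc32a1, the vesicular GABA transporter in the neuron list, had -1.61 ± 0.36 on Scd2 (edgeR adjusted p = 0.0673). In the same list Nefm had 2.08 ± 0.82 and Slc17a6 0.68 ± 0.27 on Scd2 (edgeR adjusted p = 0.181 and 0.182). Astrocyte markers had 9 of 12 positive slopes on Scd1 and 7 of 12 on Scd2, oligodendrocyte precursor markers 8 and 6 of 10, neuron markers 5 and 5 of 10, microglia markers 3 and 4 of 10, endothelial markers 7 and 7 of 10, and tanycyte and ependyma markers 6 and 4 of 9. Hypothalamic markers had 4 and 4 of 16. None of the 8 striatal markers had a positive slope on either gene, with medians of -0.38 on Scd1 and -1.69 on Scd2. All 16 hypothalamic markers were found, and their summed level was 483 to 1133 CPM over the lines.

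**Figure D4:**
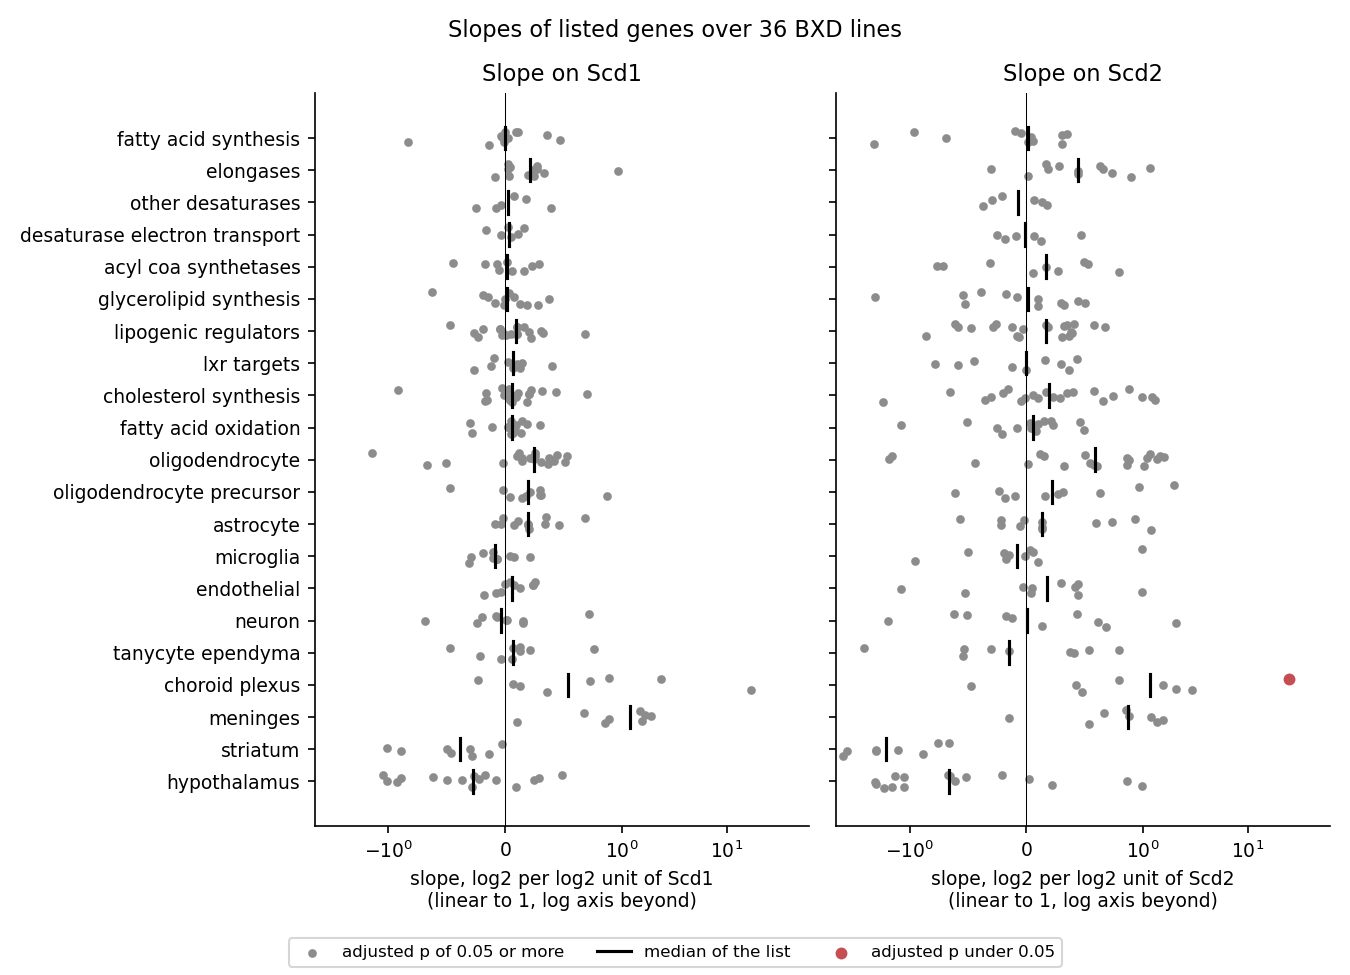
Slopes of the listed genes on Scd1 (left) and Scd2 (right) over the 36 BXD lines, in log2 units per log2 unit, with 1 point per gene and a bar at the median of each list. Ttr on Scd2 is the only point that passed the edgeR test, and the medians of the choroid plexus and meninges lists lie farthest to the right of 0, those of the striatum and hypothalamus lists farthest to the left.

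The median SD of log2 CPM over the lines was 0.13 for the 117 lipid genes measured at 1 CPM or more on average, against 0.15 over all genes. Scd1 was exceeded in SD by 44 of them and Scd2 by 110. Acaca, which makes malonyl-CoA for fatty acid synthesis, was the only 1 of the 117 with a gap between lines, a step of 1.00 log2 units that just met the limit, and ran from 15.97 to 70.4 CPM. Mlycd, which breaks malonyl-CoA down, had the largest SD, 0.74. It was the only lipid gene past 1 log2 unit between the parents, with -1.23 (C57BL/6J minus DBA/2J). Over all genes 69 of 14487 (0.476%) had such a gap, and 231 of 14630 (1.58%) passed 1 log2 unit between the parents. A count of 1 among 117 for each does not set the lipid genes apart from these shares. The sides of Acaca and of Mlycd each matched those of Scd4 in 22 of 36 lines, close to the 20 of the median gene.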

How the data were processed

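The tools were, per the submitters' processing notes, TopHat2 2.0.8, HTSeq 0.5.4p3 and DESeq with the assembly mm9; the annotation and the treatment of multiply matching reads are not given in the sources used here. The authors deposited a table of whole-number counts for 23955 gene symbols, used for all comparisons, and a normalized signal for 15251 names, counts divided by a size factor, from which whole reads were recovered (100% within a tolerance of 0.01) as an alternative. Library totals were 12.2 to 40.4 M counts (median 23.6 M).

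CPM use TMM factors, and log2 CPM a prior count of 2. Fits used edgeR 4.0.16 in R 4.3.3 (quasi-likelihood, robust, filterByExpr, Benjamini-Hochberg over all genes), tested on simulated data, with DESeq2 1.42.0 as the other tool. Differences with 1 library a side, and steps between lines, were described by size in genes of at least 1 CPM. Poisson intervals cover counting error only. Lines were counted on each side of a step and never averaged or tested as groups. Gene order, exon lengths and coding sequences came from GENCODE vM21 (GRCm38) and were aligned with mafft 7.526; the start region came from RefSeq. Since the counts were made on mm9, the only coordinates given are those of the RefSeq start region, on GRCm38.p6. All 243 listed genes were found, 8 under an older symbol. Genes were named by smallest p among calls at 1 CPM or more, up to 4 per list, as the 5 nearest on each side, or as most alike. The members, lists and tests were chosen with earlier results of these data known. The division into 9 and 6 lines was chosen after seeing the data. Values of some listed genes are not reported here.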

Additional observations from a re-analysis of the deposited data

How the results depend on the processing

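The count for the slope on Scd2 moved most with the processing. Against 12 calls it was 231 with DESeq2, 91 with no filter on low counts, 183 with reads recovered from the normalized table, 34 with the oligodendrocyte markers as a covariate, 0 without the 2 lines farthest from the median and 0 without BXD32 and BXD65, the 2 lines with the highest summed choroid plexus markers. Leaving out each of the 36 lines in turn, added after seeing the data like the choroid plexus setting, gave 0 to 153 calls. It rose past 18 without BXD103, BXD43, BXD66, BXD79 or BXD81. It fell below 8 without BXD100, BXD32, BXD48, BXD49, BXD55, BXD56, BXD63, BXD67, BXD75, BXD83, BXD84, BXD89 or BXD98. The slope on Fgf15 gave 4 calls with no filter and 3 with recovered reads, and the slope on Scd1 gave 4 with DESeq2. F1 hybrids against inbred libraries gave 0 or 1 calls with a hybrid left out. With a minimum of 5 CPM, 79 genes passed the size limit between the parents and 5 between the hybrids. The cause of these shifts was not tested.

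The slope of Scd4 on Scd1 turned to 0.36 without the 2 lines farthest from the median (edgeR adjusted p = 1.00). The correlation of Scd1 with Scd4 above the step turned to 0.22 without the 2 farthest lines and to 0.16 within the 6 highest lines, and that of Scd2 with Scd4 to -0.17 within the 9 middle lines, none with a permutation p under 0.05. Differences of Scd2 of 0.04 between the parents and 0.02 between the hybrids shrank to 0.02 and turned to -0.0027 with library totals in place of TMM. The slope of Scd1 on Scd2 lost its call in 13 settings (11 of them with a line left out, 1 without the 2 lines farthest from the median, 1 without the choroid plexus lines), and that of Scd2 on Scd1 gained one with DESeq2 (0.34). Another 224 values were rated as kept, by a rule that differed with the kind of value. Call counts had to stay within a set ratio, and slopes and group differences had to keep their direction and side of the threshold. Differences with 1 library a side had to stay within counting error, so a small one could change sign and still be rated as kept. Depth limits Scd4 in the 21 low lines, where 2 to 10 reads allow no ranking. No paired analysis was possible because the labels give strains a single library without a shared number.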
